A study of Mus musculus with 4 samples.

Results

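The enzymes that make and break down retinoic acid, the plasma carrier of its precursor retinol, and the nuclear receptors that bind retinoic acid were followed in mouse kidney on 4 one-colour Agilent expression arrays. The set comprised 9 genes, covered by 15 probes in 24 spots, of 21113 named genes, 41142 probes and 43379 spots that were not controls. Its members are Rbp4, Dhrs3, Aldh1a1, Aldh1a2, Aldh1a3, Rara, Rarb, Rarg and Cyp26b1, and every probe carrying one of these names was taken. They were chosen with their values on these arrays known, so the values below are a description and no test was made on them.

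The arrays held RNA from kidneys of 8-week-old mice, and each stood for a different combination of genotype and operation. The KO injured and WT injured arrays came from NLRC5-/- mice and from C57BL/6 wild type mice after 30 min of bilateral renal ischemia and then reperfusion. The KO sham and WT sham arrays came from mice of the same genotypes after a sham operation. The labels also give C57BL/6 as the strain of the NLRC5-/- mice. The knockout was not described as limited to any cell type, and the deleted part of the gene, the sex of the animals and any pooling of animals are not given in the sources used here. The reperfusion time stands as 48 h in the titles of the injured samples and in the series design, but as 24 h in the sample descriptions.

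With 1 array per group there was no replicate, so no difference between groups could be set against the spread between animals, and having 4 arrays in all bounds how precise any value can be. Both KO arrays lay on 1 slide and both WT arrays on the other, so genotype and slide cannot be told apart, whereas injury was compared within a slide. Probes well above background made up 67.3% to 74.6% of the total, with the lowest share on the WT injured array, and no spot was saturated. The Nlrc5 probe was above background on all 4 arrays, at a log2 scaled intensity of -3.62 in KO injured, -3.35 in WT injured, -3.77 in KO sham and -4.08 in WT sham kidney, and whether it lies in the deleted part is not known here, so it checks nothing. Xist, the RNA of the inactive X chromosome, was above background only on the KO sham array, and the 4 Y chromosome genes examined were above background on the 3 other arrays and not on that one. The comparisons that use the KO sham array therefore set a female pattern against a male one, and the part of this in the results was not tested. As a check of the tissue, all 9 proximal tubule markers on the array were above background on every array, and their summed scaled signal was 1104 in KO injured, 243.7 in WT injured, 1106 in KO sham and 1196 in WT sham kidney.

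Retinol travels in plasma on retinol-binding protein, enters cells and is oxidised to retinaldehyde, a step that retinaldehyde reductases such as Dhrs3 run backwards. Retinaldehyde dehydrogenases of the Aldh1a family then make retinoic acid, which binds the receptors Rara, Rarb and Rarg on DNA as dimers with a retinoid X receptor, and enzymes of the Cyp26 family oxidise retinoic acid and end the signal. In the developing kidney, retinoic acid made in the stroma is needed for branching of the ureteric bud.

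Values are log2 of the background-subtracted spot intensity minus the 75th percentile of the same array, so 0 is the level of the 75th percentile and 1 unit is 2-fold. Differences are the first-named group minus the second on this scale, and each describes 1 probe, so levels of different genes cannot be set against each other. Repeated spots give the only measure of error. Over 206 probes printed more than once, the SD between spots of a probe within an array was 0.12. For a difference between 2 spots this gives 0.17, called the technical SD below. It covers spots of 1 RNA on 1 array, and not labelling, variation between arrays or the animals. In RNA from whole tissue, fewer cells of a type and less RNA per cell cannot be told apart.

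After injury in WT kidney, 5 of the 8 members with a value were at least 2-fold lower and 2 were at least 2-fold higher than in WT sham kidney. Among 16660 genes above background on either of these arrays, 12.7% were at least 2-fold lower and 14.3% at least 2-fold higher. In KO kidney the injured array had 2 members at least 2-fold lower and 1 at least 2-fold higher than the sham array, where 3.18% and 4.45% of 17030 genes lay past these bounds. The members were selected on these contrasts, so nothing is read from their counts beside those shares. The median difference over members was -2.24 in WT and -0.34 in KO kidney, against 0.0006 and 0.02 over all genes. The ninth member, Rara, was not above background anywhere.

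**Figure D1:**
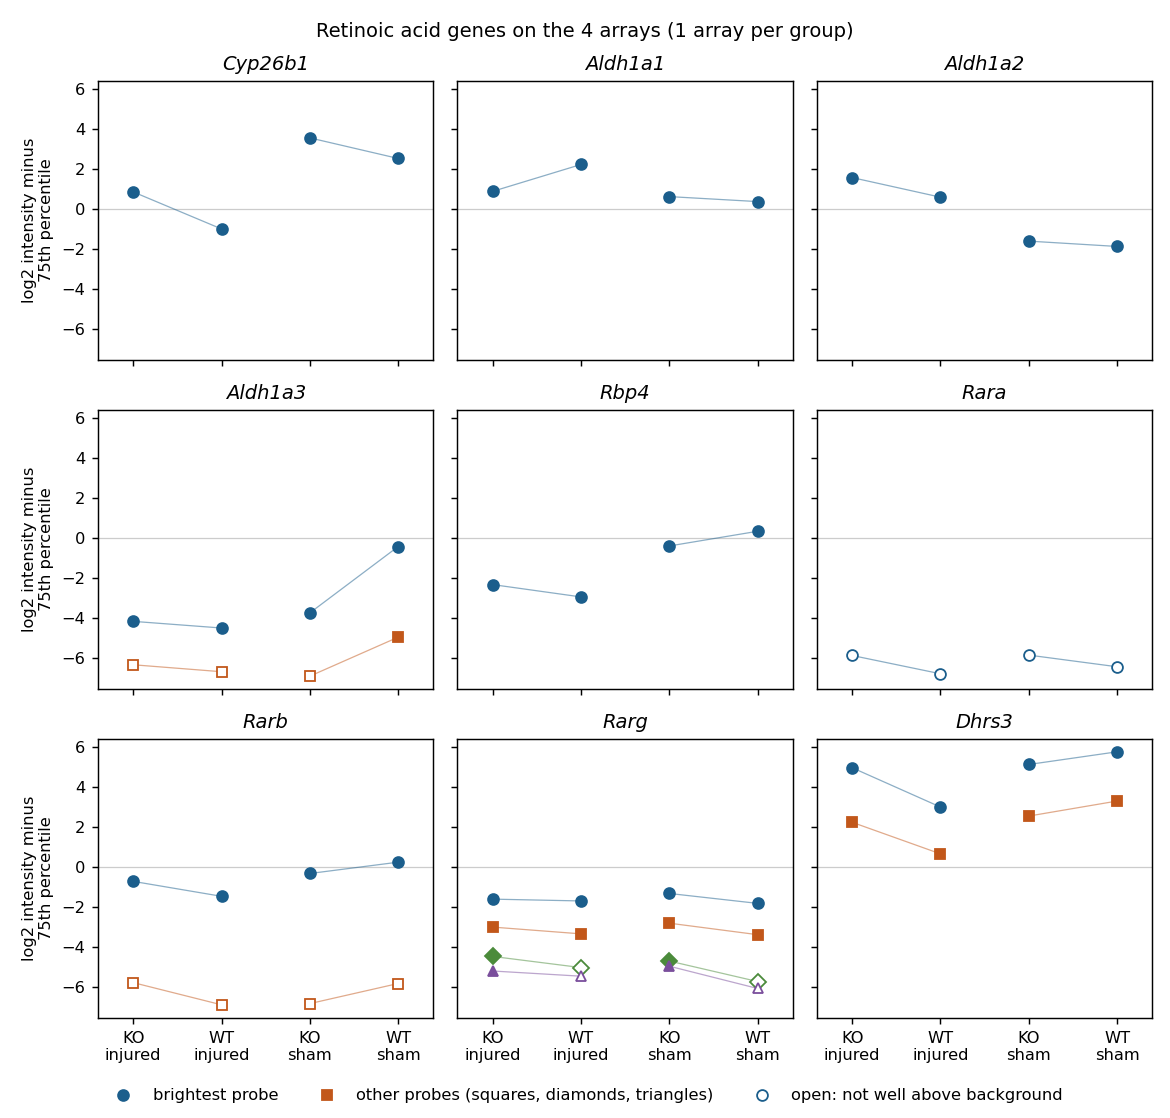
Level of every probe of the 9 members on the 4 arrays, as log2 intensity minus the 75th percentile of the array (vertical axis), with 1 point per probe and array, round blue points for the brightest probe and open points for probes at background; lines join KO and WT within an operation. Cyp26b1 was lower on both injured arrays than on both sham arrays, Aldh1a2 was higher on both, and the brighter Aldh1a3 probe stood at -0.44 on the WT sham array and at -3.76 or below on the others.

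Rbp4, the carrier of retinol in plasma, is covered by 1 probe at chr19:38191129-38191188 on the minus strand (mm9, the build of the files). It stood at -2.34 in KO injured and -2.96 in WT injured kidney, against -0.41 in KO sham and 0.33 in WT sham kidney. Both injured arrays were below both sham arrays. The injured level was 3.82-fold lower than sham in KO kidney (difference -1.93) and 9.76-fold lower in WT kidney (difference -3.29). A larger drop was seen for 62 genes in KO kidney and 120 in WT kidney, of 16907 and 16166 genes with a value. The members were chosen with these contrasts known, so this rank and those of other members below are descriptions. Between genotypes the differences were smaller, at -0.74 for KO against WT in sham kidney and 0.62 in injured kidney. Rbp4 is also made by fat and liver, and the summed markers of both cell types were highest on the WT sham array. The 6 adipocyte markers on the array had a summed scaled signal of 8.93 in KO injured, 4.62 in WT injured, 13.1 in KO sham and 48.2 in WT sham kidney, with 2, 3, 3 and 5 of them above background, and Adipoq and Plin1 were above background on the WT sham array alone. The 4 hepatocyte markers on the array summed to 1.29 in KO injured, 0.57 in WT injured, 0.88 in KO sham and 4.06 in WT sham kidney, with Apoa1 at background throughout and Ttr highest on the KO sham array. The part of these cells in the Rbp4 values was not tested. Other background corrections brought the Rbp4 differences as close to 0 as -0.47 in KO kidney, short of 2-fold, and -1.88 in WT kidney.

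Dhrs3, which reduces retinaldehyde back to retinol, has probes at chr4:144517350-144517409 and chr4:144517217-144517276, both on the plus strand. The brighter probe stood at 4.96 in KO injured and 2.99 in WT injured kidney, against 5.12 in KO sham and 5.76 in WT sham kidney. The second probe stood at 2.23 in KO injured and 0.65 in WT injured kidney, against 2.54 in KO sham and 3.29 in WT sham kidney. Both probes placed the WT injured array far below the other 3. In WT kidney the injured level was 6.80-fold lower than sham by the brighter probe and 6.25-fold lower by the other (differences -2.77 and -2.64). In KO kidney the differences were -0.16 and -0.31, the first of them within the technical SD. The KO injured level was 3.91-fold above the WT injured level by the brighter probe and 2.99-fold by the other. The summed signal of the proximal tubule markers had the same order of arrays, with KO injured and KO sham nearly equal (1104 and 1106). The median difference of this list was -2.91 in injured against sham WT kidney and -0.02 in KO kidney. Not every marker had this order: Lrp2 was highest on the KO injured array. Slc22a6 was higher in injured than in sham WT kidney (difference 0.19). The 6 endothelial markers also summed lowest on the WT injured array, at 29.7 in KO injured, 6.96 in WT injured, 41.6 in KO sham and 31.0 in WT sham kidney. All 6 were above background on each array. A lowest sum on the WT injured array was not particular to these lists. It was also seen for loop of Henle, podocyte, urothelial, adipocyte, hepatocyte, macrophage, T cell and adrenal cortex markers, and not for the remaining lists. The part of these cell types in the Dhrs3 values was not tested.

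The 3 retinaldehyde dehydrogenases had 3 different patterns. Aldh1a2, the enzyme that makes most retinoic acid in the embryo, is covered by a probe at chr9:71143931-71143990 on the plus strand. It stood at 1.56 in KO injured and 0.58 in WT injured kidney, against -1.62 in KO sham and -1.89 in WT sham kidney. Both injured arrays were well above both sham arrays. The injured level was 9.06-fold above sham in KO kidney (difference 3.18) and 5.53-fold in WT kidney (difference 2.47), and 73 genes in KO and 390 in WT kidney had a larger positive difference. KO and WT differed by 0.27 in sham kidney and by 0.98 in injured kidney. Aldh1a2 is known from stromal and mesothelial cells, and the 8 fibroblast and mesenchyme markers summed to 107.2 in KO injured, 46.9 in WT injured, 34.5 in KO sham and 41.5 in WT sham kidney. All 8 were above background on each array, except that Lum was at background on the WT injured array. Within this list, the collagen Col3a1 was higher on both injured arrays, by 3.77 in KO and by 1.85 in WT kidney, whereas Dcn had a difference of -2.89 between WT injured and WT sham kidney. The 4 mesothelial markers summed to 0.82 in KO injured, 3.51 in WT injured, 0.93 in KO sham and 1.77 in WT sham kidney, with 2, 2, 3 and 3 above background. Krt19 made up most of the WT injured sum and was higher than in WT sham kidney (difference 1.34). Msln and Upk3b were lower there, Lrrn4 was at background throughout, and the median difference of the list was -0.68. The part of stromal or mesothelial cells in the Aldh1a2 values was not tested.

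Aldh1a1, a cytosolic enzyme that oxidises retinaldehyde and other aldehydes, has a probe at chr19:20717764-20717823 on the plus strand. It stood at 0.87 in KO injured and 2.22 in WT injured kidney, against 0.61 in KO sham and 0.36 in WT sham kidney. The WT injured array was high and the other 3 lay close to each other. The injured level was 3.62-fold above sham in WT kidney (difference 1.86), while the difference was 0.26 in KO kidney. KO injured kidney was accordingly 2.54-fold below WT injured kidney (difference -1.34), against a difference of 0.25 between the sham arrays; under another background correction the injured arrays differed by -0.93, short of 2-fold. Aldh1a7, a close relative of Aldh1a1 in rodents and no member, was looked at after the member values were seen because its transcript could share signal. Its probe stood at 1.73 in KO injured and 3.81 in WT injured kidney, against 0.26 in KO sham and 1.13 in WT sham kidney. Both relatives were thus highest on the WT injured array. Their 60-base probes shared at most 21 bases in any ungapped alignment. The Aldh1a1 probe was not aligned to the Aldh1a7 transcript, so whether that transcript adds to its signal was not tested.

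Aldh1a3, another enzyme of this family, has a probe at chr7:73535785-73535844 and another at chr7:73553907-73553966, both on the minus strand. The brighter probe stood at -4.18 in KO injured and -4.52 in WT injured kidney, against -3.76 in KO sham and -0.44 in WT sham kidney. The WT sham array stood alone and the other 3 lay between -4.52 and -3.76. In WT kidney the injured level was 16.9-fold lower than sham (difference -4.08), with 44 genes showing a larger drop, whereas the difference in KO kidney was -0.42. The WT injured value of -4.52 lay near -4.74, the lowest value well above background on that array. Signal near background therefore limits this fold and its rank. KO sham was 9.99-fold below WT sham kidney (difference -3.32), with 36 genes further below, and the injured arrays differed by 0.33. The second probe was above background on the WT sham array only, at -4.98, where the own signals were -6.36 in KO injured, -6.70 in WT injured and -6.93 in KO sham kidney. It places KO sham at least 1.55-fold below WT sham kidney. For a probe at background, the bound uses the lowest signal well above background on that array. Markers of cells around the kidney stood high on the same WT sham array. The 5 urothelial markers summed to 1.09 in KO injured, 0.83 in WT injured, 1.45 in KO sham and 4.30 in WT sham kidney, with 4, 2, 5 and 5 above background, and the median difference of KO sham against WT sham was -1.57 for urothelial and -6.02 for adipocyte markers. The part of such tissue in the Aldh1a3 difference was not tested. Over 8 other ways of processing, the injury difference of Aldh1a3 ranged from -0.50 to 1.48 in KO and from -4.19 to -1.53 in WT kidney, and the difference of KO sham against WT sham from -3.48 to -2.18.

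The receptors are the ligand-activated transcription factors of the pathway. Printed here are 3 of their probes, 1 for each receptor and 60 bases each. A dim probe shows the limit of that probe and not of the transcript, since Rarb and Rarg are also followed by brighter probes below. The Rara probe lies at chr11:98831859-98831918 (plus strand), while the Rarb and Rarg probes, at chr14:17381032-17407740 and chr15:102066621-102069261 (minus strand), span more of the genome than their length and so cross an exon junction.
Rara: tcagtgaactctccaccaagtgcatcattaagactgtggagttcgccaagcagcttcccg
Rarb: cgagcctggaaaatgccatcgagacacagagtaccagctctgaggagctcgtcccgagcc
Rarg: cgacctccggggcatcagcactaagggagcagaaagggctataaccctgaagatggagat
The Rara probe was not well above background on any array, with own signals from -6.81 to -5.87, so Rara has no value here. The junction probe of Rarb was likewise at background on all 4 arrays, with own signals from -6.91 to -5.80. The junction probe of Rarg was above background on both KO arrays only, at -5.21 in KO injured and -4.97 in KO sham kidney, and had own signals of -5.47 in WT injured and -6.09 in WT sham kidney.

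Rarb, itself a known target gene of retinoic acid, is followed by a second probe at chr14:17263511-17263570 on the minus strand, printed in 10 spots. Its mean was -0.73 ± 0.04 (SD over 8 spots) in KO injured and -1.48 ± 0.12 (10 spots) in WT injured kidney, against -0.33 ± 0.08 (9 spots) in KO sham and 0.23 ± 0.14 (10 spots) in WT sham kidney. These SDs and the spot ranges that follow describe repeated spots of 1 RNA on 1 array, and not the spread between animals. The ranges of the spots did not overlap between any of the arrays, being -0.81 to -0.68 in KO injured, -1.65 to -1.28 in WT injured, -0.50 to -0.23 in KO sham and 0.06 to 0.47 in WT sham kidney. The order was WT sham, KO sham, KO injured and WT injured, from high to low. In WT kidney the injured level was 3.27-fold lower than sham (difference -1.71), and in KO kidney the difference was -0.39. KO was below WT by 0.57 in sham kidney and above WT by 0.75 in injured kidney. Over 8 other ways of processing, the injury difference in WT kidney lay between -1.82 and -1.13, and the one in KO kidney between -0.41 and 0.33.

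Rarg has 4 probes. The brightest, at chr15:102072411-102072470, stood at -1.62 in KO injured and -1.71 in WT injured kidney, against -1.33 in KO sham and -1.83 in WT sham kidney. A second, at chr15:102066309-102066368, stood at -3.02 in KO injured and -3.35 in WT injured kidney, against -2.82 in KO sham and -3.40 in WT sham kidney. By both probes the KO sham array was the highest, and the injured arrays lay between it and the WT sham array. The differences between injured and sham kidney were -0.28 and -0.20 in KO and 0.12 and 0.04 in WT kidney, and KO exceeded WT by 0.50 and 0.58 in sham kidney. Another probe, at chr15:102072505-102072564, was above background on the KO arrays only, at -4.49 in KO injured and -4.72 in KO sham kidney, which places KO sham at least 1.74-fold above WT sham kidney. No measured difference or bound of a Rarg probe reached 2-fold in any comparison.

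Cyp26b1, which oxidises retinoic acid, has 1 probe at chr6:84521952-84522011 on the minus strand. It stood at 0.84 in KO injured and -1.01 in WT injured kidney, against 3.55 in KO sham and 2.52 in WT sham kidney. Every array differed from the next in this order by more than 1 unit: KO sham, WT sham, KO injured and WT injured, from high to low. The injured level was 6.52-fold lower than sham in KO kidney and 11.5-fold lower in WT kidney, with 22 and 87 genes further below. KO was 2.04-fold above WT in sham kidney and 3.62-fold above WT in injured kidney (difference 1.85, and 1.15 at the lowest under other processing). Inner medulla and papilla markers had a median difference of -0.59 between injured and sham KO kidney and -2.49 in WT kidney, and endothelial markers of -0.46 and -2.12. The inner medulla list was mixed in WT kidney: Fxyd4 and Slc5a3 were higher after injury, by 1.05 and 0.98, and Slc14a2, Calb2, Akr1b3 and Slc6a12 lower. Its summed signal was 43.3 in KO injured, 65.2 in WT injured, 62.9 in KO sham and 86.2 in WT sham kidney. The part of these cell types in the Cyp26b1 values was not tested. Cyp26a1, the other main retinoic acid hydroxylase and no member, was looked up for comparison after the values of Cyp26b1 had been seen. Its own signals were -4.42 in KO injured, -5.23 in WT injured, -4.44 in KO sham and -4.73 in WT sham kidney, with the WT injured array at background.

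The promoters of 3 members on which these results turn are printed beside that of Cyp26a1, to show where the letters of a retinoic acid response element stand: Rarb as a known target, and Cyp26b1 and Aldh1a2 as the members with the largest mean drop and the largest mean increase after injury. They are the 250 bases before the gene start in RefSeq (GRCm38.p6), at chr14:16575477-16575726 (minus strand) for Rarb, chr19:37697558-37697807 (plus) for Cyp26a1, chr6:84593811-84594060 (minus) for Cyp26b1 and chr9:71215539-71215788 (plus) for Aldh1a2. Capitals mark a DR5, the direct repeat of the receptor half-site that retinoid receptor dimers are known to bind.
Rarb: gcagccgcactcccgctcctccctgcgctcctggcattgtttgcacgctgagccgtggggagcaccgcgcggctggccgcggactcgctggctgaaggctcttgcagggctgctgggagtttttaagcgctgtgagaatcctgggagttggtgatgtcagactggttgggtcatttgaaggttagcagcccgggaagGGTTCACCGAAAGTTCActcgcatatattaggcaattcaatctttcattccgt
Cyp26a1: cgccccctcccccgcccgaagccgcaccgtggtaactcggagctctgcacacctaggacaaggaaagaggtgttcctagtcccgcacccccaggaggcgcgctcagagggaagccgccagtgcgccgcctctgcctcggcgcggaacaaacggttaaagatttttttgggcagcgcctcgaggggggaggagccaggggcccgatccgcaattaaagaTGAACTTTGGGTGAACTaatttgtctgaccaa
Cyp26b1: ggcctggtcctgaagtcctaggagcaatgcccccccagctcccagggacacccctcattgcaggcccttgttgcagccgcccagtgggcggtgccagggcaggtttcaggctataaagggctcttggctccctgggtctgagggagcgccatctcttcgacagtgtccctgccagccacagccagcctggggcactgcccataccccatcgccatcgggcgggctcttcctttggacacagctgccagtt
Aldh1a2: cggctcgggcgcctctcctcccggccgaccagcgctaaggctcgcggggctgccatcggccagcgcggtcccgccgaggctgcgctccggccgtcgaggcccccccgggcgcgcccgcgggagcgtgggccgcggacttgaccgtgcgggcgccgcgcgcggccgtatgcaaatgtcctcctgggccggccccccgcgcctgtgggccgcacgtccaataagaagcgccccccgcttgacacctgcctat
The Rarb window holds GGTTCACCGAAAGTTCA on the strand of the gene, 53 to 37 bases before its start. The Cyp26a1 window holds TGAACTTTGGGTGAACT, a DR5 on the opposite strand, 32 to 16 bases before its start. Both strands of every window were searched for DR1, DR2 and DR5 repeats and for the single half-site AGGTCA, which can lie inside such a repeat. Of 32851 RefSeq promoter windows of this length, 0.0883% held a DR5, 0.164% a DR1, 0.174% a DR2 and 14% AGGTCA. RefSeq windows were matched for 8 of the 9 members, 16 windows in all, and beyond Rarb only a Rarg window held a match, an AGGTCA on the opposite strand. A match is a description of letters, and a window without one says nothing about binding elsewhere.

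Between genotypes, in sham kidney 1 of the 8 members with a value (Cyp26b1) was at least 2-fold higher in KO than in WT and 1 (Aldh1a3) at least 2-fold lower, where 3.91% and 3.25% of 16981 genes lay past these bounds. The calls over all genes in this comparison depended on the scaling: 54.6% of them were higher in KO as measured here, against 33.8% when arrays were scaled to their median, which moves the median of all genes to -0.11, 43.7% after quantile normalization and 43.1% in the authors' deposited table. The Cyp26b1 difference of 1.03 lay near the bound and ranged from 0.87 to 1.09 over 8 other ways of processing. In injured kidney 2 members (Dhrs3 and Cyp26b1) were at least 2-fold higher in KO than in WT and 1 (Aldh1a1) at least 2-fold lower, with 8.74% and 7.71% of 16731 genes past these bounds. The selection used these contrasts too. Aldh1a2, at 1.97-fold, lay just below the bound. The median over members was -0.16 in sham and 0.68 in injured kidney, against 0.05 and 0.03 over all genes.

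The response to injury was also compared between genotypes, as the KO difference minus the WT difference. It was 3.65 for Aldh1a3, 2.60 for Dhrs3, 1.35 for Rbp4, 1.31 for Rarb, 0.82 for Cyp26b1, 0.71 for Aldh1a2, -0.41 for Rarg and -1.59 for Aldh1a1. For Aldh1a3, Dhrs3, Rbp4, Rarb and Cyp26b1 this means a smaller drop in KO than in WT kidney, for Aldh1a2 a larger increase and for Aldh1a1 a smaller one. Over the 14949 genes above background on all 4 arrays the median of this quantity was -0.02 and its SD 0.94, with 9.81% of genes at or above 1 and 9.29% at or below -1. The responses of all these genes were narrower in KO than in WT kidney, with SDs of 0.60 and 1.05. The WT injured array was also the dimmest, with a 75th percentile of 182 against 457 on the WT sham array. In KO kidney these were 362 on the injured and 466 on the sham array. The part of array brightness in the SDs was not tested. The KO and WT responses use different arrays, 1 for each group, and the difference between them was not tested.

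**Figure D2:**
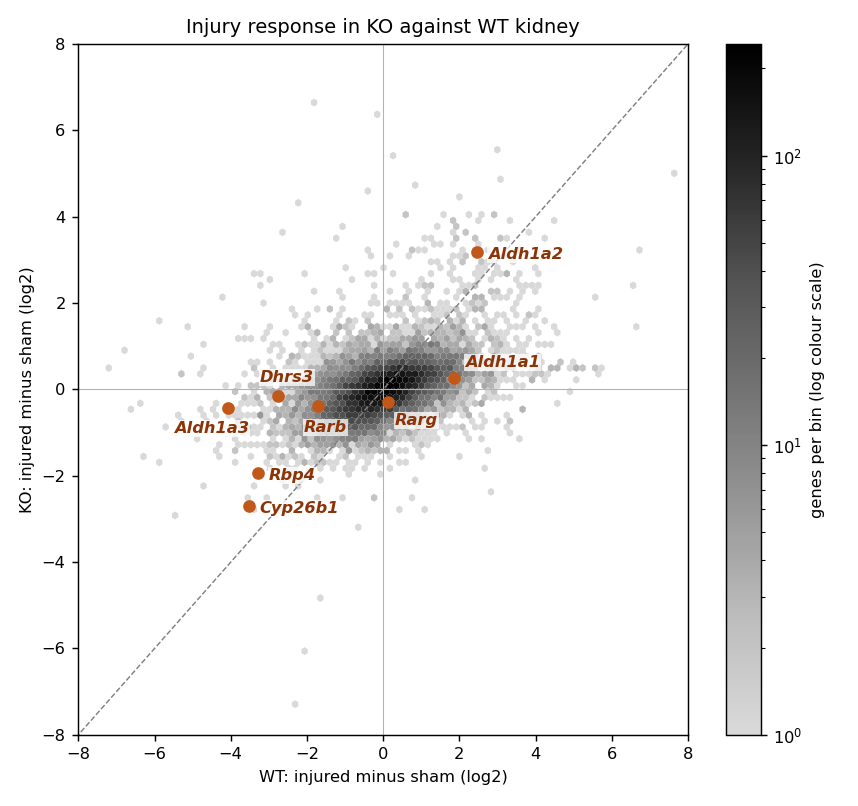
Injured minus sham difference in KO kidney (vertical axis, log2) against that in WT kidney (horizontal axis, log2) for the 8 members with a value (orange points) over all genes above background on all 4 arrays (grey hexagons, shaded by genes per bin). The dashed line marks equal responses: Cyp26b1 (-2.70 in KO, -3.53 in WT) and Aldh1a2 (3.18 in KO, 2.47 in WT) lie near it, while Aldh1a3 and Dhrs3 lie close to 0 in KO and far below 0 in WT kidney.

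Other genes of retinoid handling were taken from a list of 83, of which 80 were on the array and 68 above background on either array in each comparison. Between injured and sham kidney, 5 were at least 2-fold higher and 2 lower in KO, and 8 higher and 16 lower in WT kidney. Over all genes the shares past these bounds were 4.45% higher and 3.18% lower in KO, and 14.3% and 12.7% in WT kidney. Between KO and WT, 1 was higher and 6 lower in sham kidney, and 10 were higher and 10 lower in injured kidney, with 3.91% and 3.25% of all genes past these bounds in sham and 8.74% and 7.71% in injured kidney. The medians were 0.09 and -0.27 for injury in KO and WT, and 0.01 and 0.23 for KO against WT in sham and injured kidney. Names below follow a rule on the size and repeat of a difference, and those marked as chosen later were picked after their values were seen.

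Among 21 enzymes that interconvert retinol and retinaldehyde, 18 were above background. Between injured and sham kidney, 3 of these were at least 2-fold higher and 0 lower in KO, and 2 were higher and 5 lower in WT kidney. Over all genes the shares were 4.45% higher and 3.18% lower in KO, and 14.3% and 12.7% in WT kidney. Rdh10, the main retinol dehydrogenase of the embryo, was lower in KO than in WT kidney under both operations. It stood at 0.47 in KO injured and 1.57 in WT injured kidney, and at 1.13 in KO sham and 2.39 in WT sham kidney. Its genotype differences were -1.10 in injured and -1.25 in sham kidney. Akr1b8, an aldo-keto reductase that can reduce retinaldehyde, stood at 3.41 in KO injured and 5.27 in WT injured kidney, against 2.33 in KO sham and 2.95 in WT sham kidney, so injured exceeded sham by 1.08 in KO and 2.32 in WT. The 2 others at least 2-fold higher in injured than in sham KO kidney, chosen later, were Rdh7 and Adh1, with differences of 1.13 and 1.08.

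Several carriers and stores were lower in injured than in sham WT kidney. Of 8 detected genes of binding and uptake, 4 were at least 2-fold lower there and 1 higher than in sham WT kidney, and of 6 detected genes of storage and carotenoid cleavage, 2 were lower and 1 higher, where 12.7% of all genes were lower and 14.3% higher. The higher ones, chosen later, were Stra6, the cell surface receptor for Rbp4 (difference 1.36), and Bco1, which cleaves beta-carotene (difference 1.63). Ttr, the plasma partner of Rbp4, stood at -2.07 in KO injured kidney and at background in WT injured kidney, against -0.56 in KO sham and -1.02 in WT sham kidney. Its injury difference was -1.51 in KO kidney, and in WT kidney it was -3.72 or lower. Ces1d, a carboxylesterase with retinyl ester hydrolase activity, stood at 2.14 in KO injured and 0.34 in WT injured kidney, against 2.34 in KO sham and 3.65 in WT sham kidney. The WT injured array was lowest and the WT sham array highest, with an injury difference of -0.21 in KO and -3.31 in WT kidney. The others lower in WT kidney, also chosen later, were Rbp7 (difference -1.96 or lower), Lrp2 (difference -1.02) and Cubn (difference -1.44) among carriers and Lrat (difference -2.09 or lower) among stores. Lrp2 and Cubn encode the proximal tubule receptors that recover filtered carrier proteins, Lrat makes retinyl esters, and Lrp2 and Cubn also belong to the proximal tubule markers above.

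Of 14 partner receptors, cofactors and receptor responders, 13 were above background. In each genotype 1 of these was at least 2-fold lower in injured than in sham kidney. Over all genes 3.18% were lower in KO and 12.7% in WT kidney. Rxrg, a retinoid X receptor, stood at -1.86 in KO injured and -4.27 in WT injured kidney, against -2.41 in KO sham and -2.35 in WT sham kidney. The WT injured array alone was low, and KO exceeded WT by 2.41 in injured kidney against -0.07 in sham kidney. Rarres1, a retinoic acid receptor responder, stood at -2.73 in KO injured and -3.11 in WT injured kidney, against -1.73 in KO sham and -2.69 in WT sham kidney, so it was 2-fold lower in injured than in sham KO kidney, with a difference of -0.43 in WT kidney. Rarres2, chosen later, was the other gene of this group at least 2-fold higher in KO injured than in WT injured kidney (difference 1.26). Of 3 detected enzymes of retinoid oxidation, Cyp2s1, a cytochrome P450, was higher in injured than in sham WT kidney (difference 2.08) and Aldh8a1, an aldehyde dehydrogenase that accepts retinaldehyde, was lower (difference -1.10), both chosen later.

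Genes known to respond to retinoic acid in other settings included some of the largest differences of the list. Of 24, 23 were on the array and 20 above background. Between injured and sham kidney, 2 were at least 2-fold higher and 0 lower in KO, and 3 were higher and 3 lower in WT kidney. Over all genes the shares were 4.45% higher and 3.18% lower in KO, and 14.3% and 12.7% in WT kidney. The median difference of this group was 0.11 in KO and 0.37 in WT kidney. Lcn2, which encodes the tubular injury marker NGAL, stood at 1.59 in KO injured and 4.61 in WT injured kidney, against -0.87 in KO sham and -1.93 in WT sham kidney. Gdf15, a stress-induced cytokine, stood at 1.61 in KO injured and 4.15 in WT injured kidney, against 0.21 in KO sham and 0.17 in WT sham kidney. Both were highest on the WT injured array, with injury differences of 2.47 and 1.41 in KO and 6.54 and 3.97 in WT kidney. Both respond to many signals. Lcn2 is itself among the 7 tubular injury markers, all 7 above background on each array. They summed to 431.1 in KO injured, 1218 in WT injured, 158.7 in KO sham and 91.7 in WT sham kidney. Spp1 made up most of each sum. Between the sham arrays, Havcr1 and Krt20 were lower in KO than in WT, with differences of -5.29 and -2.60. The rest of the 7 were higher in KO sham, and the median difference of the list was 0.25. Wnt4, a signal of nephron formation, stood at -4.50 in KO injured kidney and at background in WT injured kidney, against -4.86 in KO sham and -3.00 in WT sham kidney, so KO sham was below WT sham by 1.86 on the log2 scale.

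**Figure D3:**
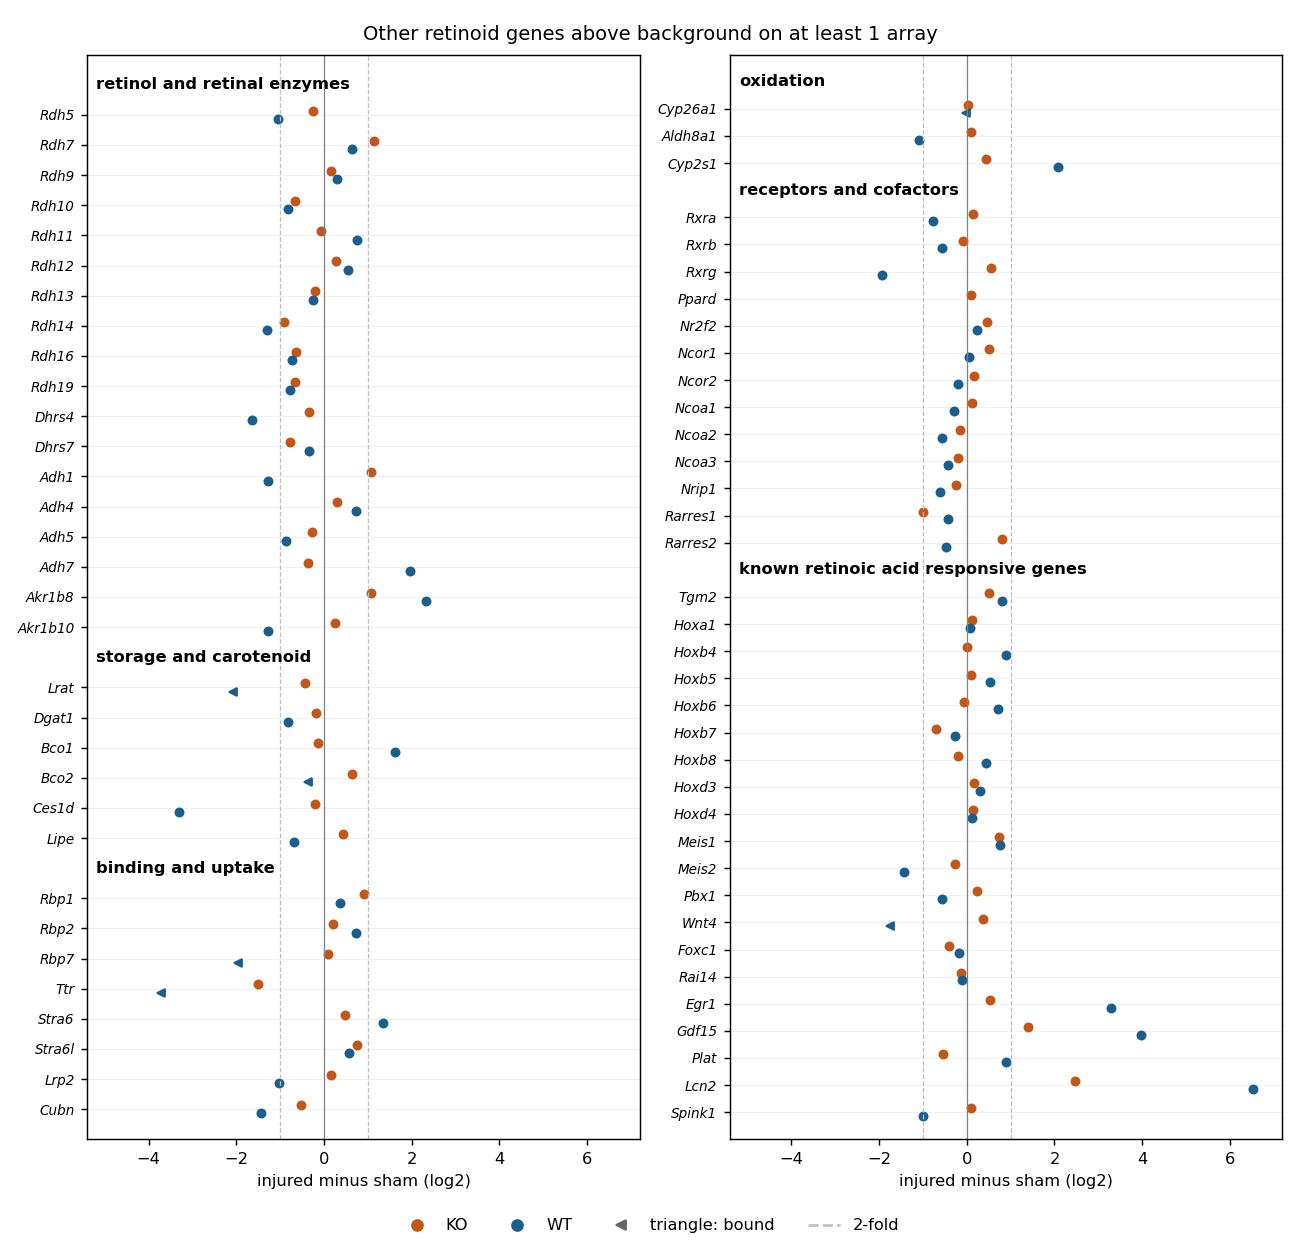
Injured minus sham difference (horizontal axis, log2) in KO (orange) and WT kidney (blue) for the other retinoid pathway genes above background, grouped by role; triangles are bounds and dashed lines mark 2-fold. Lcn2 (2.47 in KO, 6.54 in WT) and Gdf15 (1.41 in KO, 3.97 in WT) show the highest injury differences, and Ces1d and Ttr the lowest in WT kidney.

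The genes whose pattern over the 4 arrays was most like that of the members with the largest mean drop and increase were sought among 13910 genes, by root mean square distance after each gene was centred on its own mean. Nearest to Cyp26b1 were Hpd, an enzyme of tyrosine breakdown, at a distance of 0.09, Angpt2, an angiopoietin, at 0.17, and Ren1, renin, at 0.18. Ren1 stood at 3.33 in KO injured and 1.74 in WT injured kidney, against 5.83 in KO sham and 4.85 in WT sham kidney. Nearest to Aldh1a2 were Kif20b, a mitotic kinesin, at 0.11, Psrc1, a spindle protein, at 0.13, and Ckap2, another spindle protein, at 0.17. Kif20b stood at 0.07 in KO injured and -0.75 in WT injured kidney, against -3.18 in KO sham and -3.51 in WT sham kidney. These are likenesses over 4 arrays that share slides, and they carry no p.

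**Figure D4:**
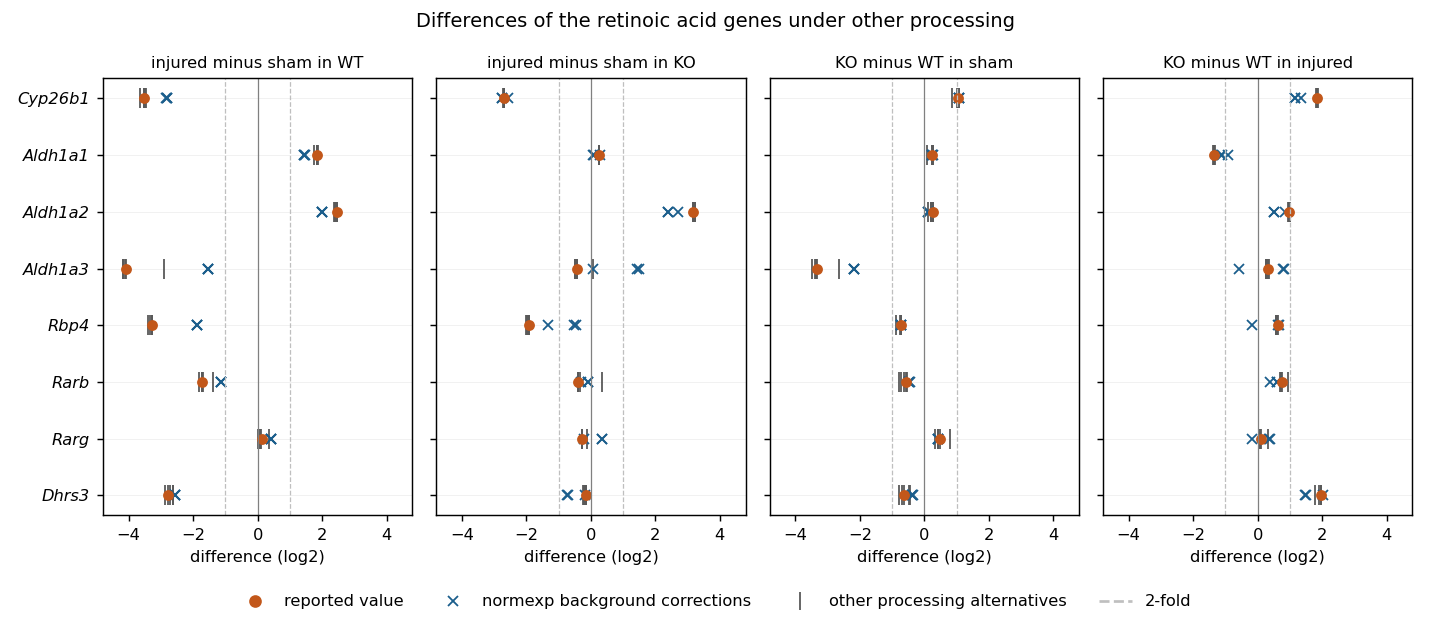
Differences (log2) of the 8 members with a value in each of the 4 comparisons under the settings used in the text (orange points) and under 8 other ways of processing (blue crosses for the normexp background corrections, grey bars for the rest; dashed lines mark 2-fold). The marks of Aldh1a3 spread from -4.19 to -1.53 for injured minus sham in WT kidney, while those of Dhrs3 lie between -2.88 and -2.56.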

How the data were processed

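Spot intensity values were read from the deposited scanner output. The file headers name Agilent Feature Extraction 10.7.3.1, whereas the submitters' processing notes give 9.1. The processed intensity was background-subtracted within each array and not scaled between arrays, per the file headers. A deposited table of log2 values made by the authors from the same arrays, with column medians of 5.91 to 5.93 and rank correlations with the scanner values of at least 0.99998, served as an alternative; its scaling between arrays is not given in the sources used here, and no centring of genes was seen.

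Of 45018 spots per array, 43379 were not controls. Control spots and spots with an outlier flag were left out, spots of a probe were averaged on the log2 scale, and the 75th percentile of each array was subtracted. Its value was 361.7 for KO injured, 181.8 for WT injured, 465.5 for KO sham and 457.0 for WT sham kidney. Probes were named by RefSeq accession (27649), symbol (5584), synonym (471) or as the files name them (1154), and 6284 had no name. The brightest probe stood for a gene. A probe counted as above background on an array where at least 50% of its spots were, and a difference against a probe at background is given as "at least". Differences were counted at 2-fold; the counting was tested on simulated data.

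The members, the gene and marker lists and the counting rule were chosen with earlier results of these data known. The rule for named genes took other pathway genes at least 2-fold apart in the same direction in both injury or both genotype comparisons and the 2 largest each way in each comparison; others are marked as chosen later. No test was made, since the members were chosen on these values and each group held 1 array; an additive fit of genotype and operation over the 4 arrays, which leaves 1 residual degree of freedom, was not run. In 10 alternatives the change was in background correction (limma 3.58.1 in R 4.3.3, normexp with offset 50), scaling, values, probe choice, filter, flagged spots or fold threshold, and another was added after the data were seen.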

Additional observations from a re-analysis of the deposited data

Results flagged for a closer look

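For 6 members the array differences pointed in opposite directions in the 2 groups compared. These differences between effects were not tested, since each group held 1 array. The genotype difference (KO minus WT) was 0.33 in injured and -3.32 in sham kidney for Aldh1a3, 3.65 apart. For Dhrs3 it was 1.97 in injured and -0.64 in sham kidney, 2.60 apart. For Rbp4 it was 0.62 in injured and -0.74 in sham kidney, 1.35 apart, and for Rarb 0.75 and -0.57, 1.31 apart. Aldh1a1 went the other way, with -1.34 in injured and 0.25 in sham kidney, which gives -1.59. For Rarg the injury difference was -0.28 in KO and 0.12 in WT kidney, which gives -0.41, with the WT value within the technical SD of 0.17. The opposite signs did not hold under every way of processing. Under normexp without spots carrying feature or background flags, the genotype difference in injured kidney was -0.57 for Aldh1a3 and -0.17 for Rbp4, the same sign as in sham kidney. Under normexp with all spots the injury difference of Rarg in KO kidney was 0.36, and without flagged spots 0.33, the same sign as in WT kidney. For Dhrs3, Rarb and Aldh1a1 the signs stayed opposite under all 8 alternatives run on single members. Averaging over probes, 1 of these 8, could not change Aldh1a1, which has 1 probe.

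Among the other pathway genes named, the genotype difference was 1.80 in injured and -1.31 in sham kidney for Ces1d, 3.11 apart. For Gdf15 it was -2.53 in injured and 0.03 in sham kidney, which gives -2.57, and for Lcn2 -3.01 and 1.06, which gives -4.07. For Rxrg the injury difference was 0.55 in KO and -1.93 in WT kidney, and the genotype difference 2.41 in injured and -0.07 in sham kidney, 2.48 apart in either reading. The sham values of Gdf15 and Rxrg were within the technical SD. These readings were not tested, and these genes were not recomputed one by one under other processing.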

How the results depend on the processing

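The 15 member differences of at least 2-fold kept their direction in all 120 values recomputed under 8 other ways of processing, and 116 of these were still at least 2-fold. Among all recomputed member values, 180 moved by less than the technical SD and 76 by more. These counts include values that had little or no room to move. Averaging over probes leaves Cyp26b1, Aldh1a1, Aldh1a2 and Rbp4, with 1 probe each, unchanged. Keeping flagged spots can change a probe printed once only through the scaling of the array. The widest ranges, all for injured minus sham, were -0.50 to 1.48 for Aldh1a3 and -2.01 to -0.47 for Rbp4 in KO kidney, and -4.19 to -1.53 for Aldh1a3 and -3.40 to -1.88 for Rbp4 in WT kidney. No array could be left out in turn, as each group held 1. No paired test was made, because with 1 array per group a pair of arrays gives 1 difference and no spread. Pairing injured with sham arrays within a slide, in an additive fit, was not run.

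Counts that moved by over 1.5 times follow. Normexp, with or without spots flagged as outliers, gave 2 members higher and 1 lower for injury in KO kidney; other pathway genes were then 16 higher for injury in KO, 0 higher and 3 lower for KO against WT in sham, and 5 higher in injured kidney. On the KO injured array 6 spots had a local background over 100, and the fitted background mean was -225.2 with all spots and -209.3 without flagged ones, against -6.71 to -1.25 on the other arrays; 4512 and 4363 genes were then higher for injury in KO, in place of 758, and 89.1% and 89.4% of calls there were higher, in place of 58.4%. Normexp without spots carrying feature or background flags, chosen after seeing the data, gave 369 higher and 200 lower genes there, in place of 758 and 541. It gave 0 members lower for KO against WT in injured kidney, and other pathway genes 10 lower for injury in WT, 3 higher and 0 lower for injury in KO, and 0 higher and 3 lower for KO against WT in sham kidney. Median scaling gave 0 members and 0 other pathway genes higher for KO against WT in sham kidney, and 433 higher and 847 lower genes there in place of 664 and 552. Quantile normalization and the authors' deposited table each gave 0 other pathway genes higher there. In the 3 normexp settings 1340, 1338 and 1248 genes were lower for injury in WT, in place of 2121. For KO against WT in sham kidney they gave 213, 214 and 201 higher and 304, 300 and 274 lower genes, with 41.2% to 42.3% of calls higher. In injured kidney they gave 728, 611 and 715 higher and 741, 721 and 730 lower genes, in place of 1462 and 1290. Under normexp the median difference of all genes reached at most 0.22.

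At a 4-fold threshold, members were 1 higher for injury in WT, 1 lower for injury in KO, 0 higher for KO against WT in sham, and 0 higher and 0 lower in injured kidney. Other pathway genes were then 1 higher and 0 lower for injury in KO, 5 higher and 3 lower for injury in WT, 0 and 0 for KO against WT in sham, and 2 higher and 4 lower in injured kidney. At a 1.5-fold threshold, members were 3 lower for KO against WT in sham and 5 higher in injured kidney. Other pathway genes were then 10 higher and 8 lower for injury in KO, 17 higher for injury in WT, 7 higher and 10 lower for KO against WT in sham, and 20 higher in injured kidney. Over all genes the 4-fold threshold left 219 higher and 54 lower for injury in KO, 673 and 527 for injury in WT, 60 and 111 for KO against WT in sham, and 344 and 286 in injured kidney. The 1.5-fold threshold gave 1853 and 1922, 4045 and 3890, 2187 and 1748, and 3034 and 2866 in the same order. The change of threshold itself sets these counts; the cause of the other moves was not tested. Signal near background limits Rara, the junction probes of Rarb and Rarg, the second Aldh1a3 probe, and the brighter Aldh1a3 probe on the WT injured array.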
